A study of Sus scrofa with 9 samples.

Results

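The comparison covered here is osteogenic induction medium (OIM) against plain medium in porcine valvular interstitial cells (PVICs), and it takes in every gene row of the deposited count table. Those rows were found by their names, with circular RNAs and non-coding transcripts left out, and came to 19535 of 35602 rows. Of the 9 libraries in the series, the 3 control and the 3 OIM libraries were compared. Another 3 libraries came from cells in OIM with 50 ng/mL basic fibroblast growth factor (bFGF). These only shared in the filter on low counts, the normalisation and the estimate of the spread. All cells were wild type, came from aortic valve leaflets of pigs aged 4 to 5 months and were grown in DMEM, a standard culture medium, to which serum was added at 10%. The control group stayed in DMEM for 3 days. The OIM group had 3 days with added insulin (1e-07 mol/L), ascorbic acid (50 µg/mL) and phosphate as the sodium dihydrogen salt (2 mmol/L). Because these additions were made together, their effects cannot be told apart here. The labels do not say whether the libraries of a group came from separate pigs or cultures, so that p-values measure the spread between these libraries, which may be technical.

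Valvular interstitial cells are the fibroblast-like cells that build and renew the collagen, elastin and proteoglycan layers of the heart valve. In culture they can take on features of myofibroblasts, which contract through smooth muscle actin, and, with added phosphate, features of bone-forming cells, a change studied as a model of valve calcification. Of the additions, phosphate is the mineral substrate, ascorbic acid is the cofactor of the enzymes that hydroxylate collagen and the hypoxia-inducible factors, and insulin acts through its own and the IGF receptor on glucose uptake, lipid synthesis and growth.

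The control libraries held 57075793 to 64723837 gene counts and the OIM libraries 57682710 to 67371523. Levels are given as CPM, the counts of a gene scaled to a fixed total of gene counts in each library, after normalisation for composition, and changes as log2 fold changes of OIM over control from edgeR's quasi-likelihood test, with p-values adjusted over all 13662 genes that passed the filter on low counts. Genes said to have risen or fallen had an adjusted p of at most 0.05. The median log2 fold change of all genes tested was -0.0019. OIM replicate 2 stood apart from the other two OIM libraries, with a mean chi-square per gene of 19.1 and 19.2 against them, where the other pairs within a group had 4.68 to 11.7, and counts that it moved by over 1.5 times are also given without it.

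Of the genes tested, 1051 (7.69%) rose and 802 (5.87%) fell, so that 13.6% changed in all. A further limit of 0.5 on the log2 scale left 203 genes (1.49%) higher and 118 genes (0.864%) lower. Small shifts were therefore the rule. Among the 1853 genes that changed, 1532 (82.7%) lay under the limit, and the median size of the shift was 0.271. All OIM libraries lay above all control libraries in 1986 genes (14.5%) and below them in 1942 genes (14.2%), whatever the test gave. Shifts under the limit were those of well-expressed genes, with a median of 67.1 CPM, whereas the 91 genes that changed by 1 or more had a median of 1.66 CPM. Depth set this in part. Of the 2065 genes at 100 CPM or more, 594 (28.8%) changed, and the median standard error of the log2 fold change was 0.0392. For the 1872 genes under 1 CPM these values were 31 (1.66%) and 0.529, and no shift below 1.04 was called there.

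**Figure D1:**
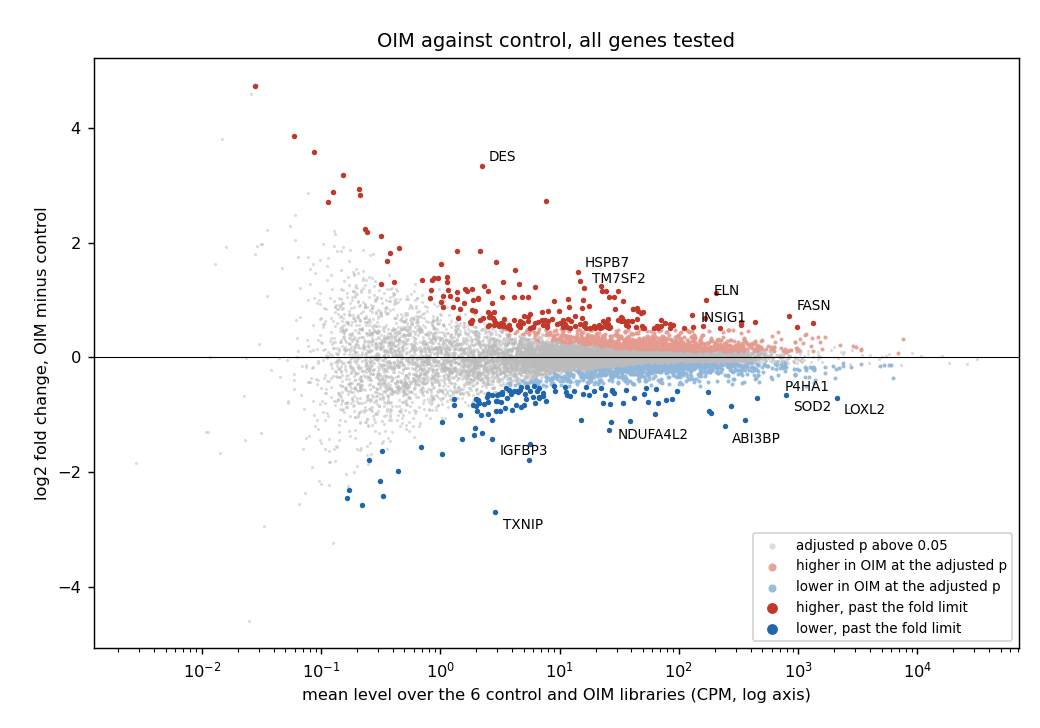
Log2 fold change of OIM over control (vertical axis) against the mean level in CPM over the 6 libraries (horizontal log axis) for the 13662 genes tested, coloured by call. Most coloured points lie in a narrow band under the limit of 0.5 and at high levels, and a few genes such as DES and TXNIP stand far outside it.

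The libraries carried the markers of their labelled cell type. All 16 markers of valve interstitial cells and fibroblasts were tested, and their summed level, here without the normalisation for composition, was 67800 to 72000 CPM in control and 65400 to 66500 CPM in OIM. Within that list PDGFRA fell by 0.35, DCN by 0.23 and LUM by 0.18, and S100A4 (0.33) and THY1 (0.27) rose. Markers of other cells were sparse. The summed level of the 14 endothelial markers was 70.6 to 74.6 CPM in control and 84.9 to 89.3 in OIM. Most of that sum was ERG, an endothelial transcription factor, which rose by 0.37, with 51.2 to 52.0 CPM in control and 66.2 to 67.8 CPM in OIM. Of the 14, 7 were higher and ERG alone was called. Their median log2 fold change was 0.063, or -0.072 without OIM replicate 2. The defining genes PECAM1 (576 to 828 counts a library) and CDH5 (288 to 382) were low and were not called. The 14 leukocyte markers summed to 16.8 to 20.3 CPM in control and 17.9 to 19.4 in OIM, with 18 to 36 counts of PTPRC a library and 2 of them at 0 in every control and OIM library. The 9 epithelial markers summed to 0.603 to 0.788 CPM in control and 0.298 to 0.659 in OIM, with 1 at 0 throughout. In bulk RNA, fewer cells of a type and less RNA per cell cannot be told apart, and the part of other cell types in the results below was not tested.

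Genes of sterol and fatty acid synthesis rose together, and of the 45 programme lists examined these had the highest medians. Of the 25 genes tested for cholesterol synthesis and uptake, 22 rose and none fell. In 24 of the 25 the lowest OIM library exceeded the highest control library, against 14.5% of all genes. Their median log2 fold change was 0.48, against -0.0019 for all genes. The list covers the steps from acetyl-CoA to cholesterol, cholesterol uptake, and the sensors that switch these genes.
TM7SF2, a sterol reductase late in the pathway, had 11.06, 8.48 and 9.71 CPM in the control libraries and 24.4, 19.7 and 23.5 CPM in the OIM libraries. That is a rise of 1.21 (SE 0.13, adjusted p = 1.7e-06), with a wide gap between the groups. Other enzymes rose too, among them EBP by 0.67 and MVD by 0.63. INSIG1, which holds the sterol sensor in the endoplasmic reticulum, had 111, 101 and 109.6 CPM in control and 156, 154 and 154 CPM in OIM, a rise of 0.53 (SE 0.04). SREBF2, which encodes the transcription factor of the pathway, rose less, by 0.22, from 184, 204 and 191 CPM to 227, 228 and 219.8 CPM.

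Of these 22 genes 12 also passed the fold limit, and the rest shifted by less with little spread. HMGCS1, which makes HMG-CoA, went from 225, 198 and 216 CPM to 301, 302 and 291 CPM (0.48, SE 0.04), and SQLE, the enzyme that epoxidises squalene, from 141, 128 and 136 CPM to 177, 174 and 178 CPM (0.38, SE 0.04). Leaving out any of the 9 libraries kept the count at 22 or 23 and the median between 0.44 and 0.53.

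SREBF2's product is known to bind sterol response elements near gene starts, so the 300 bases before the RefSeq start of each gene were searched on both strands for TCACNCCAC, a form of that element. In Sscrofa11.1 these letters occurred before 4 of the 25 cholesterol genes (16.0%), and before 129 of the 13640 genes with such a window (0.946%). The CCAAT box, CCAAT, occurred before 21 of the 25 (84.0%) and before 36.1% of all genes. It was also found before 52.2% of the 23 fatty acid genes described next and before 54.0% of 63 mitosis genes, and the 4924 genes that hold it had a median log2 fold change of 0.0. Neither motif contains the other, and each was counted by itself. The windows of HMGCS1 and SREBF2 are shown because they hold the letters and both genes rose, each read 5′ to 3′ on the strand of its gene and ending at the base before the start, with the sterol letters in capitals. They lie at chr16:27957262-27957561 for HMGCS1 and chr5:6784725-6785024 for SREBF2, both on the minus strand.
HMGCS1: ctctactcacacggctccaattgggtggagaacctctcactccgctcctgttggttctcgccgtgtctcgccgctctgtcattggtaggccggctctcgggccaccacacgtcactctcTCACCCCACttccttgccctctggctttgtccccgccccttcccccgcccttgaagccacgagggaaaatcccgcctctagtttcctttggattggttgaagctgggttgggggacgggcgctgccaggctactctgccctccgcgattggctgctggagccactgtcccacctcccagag
SREBF2: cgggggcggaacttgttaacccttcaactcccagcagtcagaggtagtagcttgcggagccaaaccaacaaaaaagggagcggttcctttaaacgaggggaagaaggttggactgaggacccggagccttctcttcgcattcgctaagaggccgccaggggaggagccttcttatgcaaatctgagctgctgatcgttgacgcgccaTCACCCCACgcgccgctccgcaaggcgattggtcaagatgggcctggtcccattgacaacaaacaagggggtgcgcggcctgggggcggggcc
A match is a description of the letters in this window and not evidence that the site was bound. Counted with -1 as the base before the start, it begins at -181 in HMGCS1 and at -93 in SREBF2. Among the 129 genes that hold the letters, 23 changed, 17 of them upwards, where 13.6% of all genes changed. The median log2 fold change of the 129 was 0.031.

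The fatty acid list moved the same way. Of its 23 genes tested, 15 rose and 1 fell, with a median of 0.34 that stayed between 0.32 and 0.34 when any library was left out. FASN, the synthase that builds palmitate, had 597, 669 and 630.0 CPM in control and 1093, 1089 and 948 CPM in OIM (0.72, SE 0.05). SCD, which desaturates the product, had 784, 795 and 792 CPM in control and 1193, 1123 and 1123 CPM in OIM (0.54, SE 0.04). The groups were far apart in both. PNPLA3, a lipid-droplet acyltransferase and lipase, rose from 2.92, 1.52 and 2.04 CPM to 6.70, 5.69 and 6.23 CPM, by 1.53. Enzymes that supply the building blocks shifted by less and evenly, with ACLY at 0.48, ACSS2 at 0.46 and ACACA at 0.34, as did the desaturases FADS1 (0.47) and FADS2 (0.31) and the elongases ELOVL6 (0.40) and ELOVL5 (0.34). SREBF1, the lipogenic transcription factor, rose by 0.39. The single member that fell was MLXIP, a glucose-responsive transcription factor (-0.20).

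**Figure D2:**
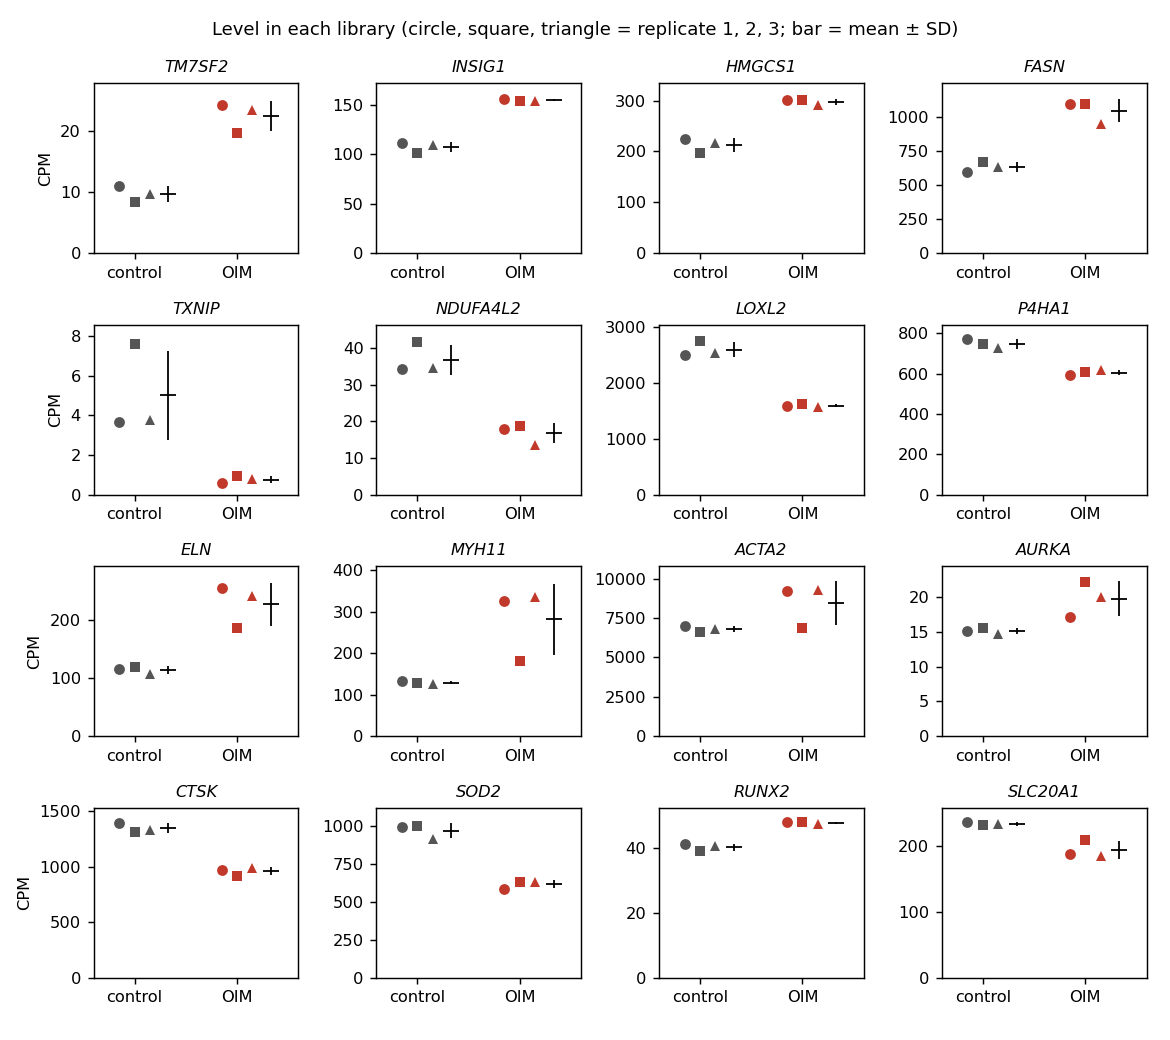
Level in CPM (vertical axes, from 0) of 16 genes in each control library (grey) and OIM library (red), with symbols for the replicates and the mean and SD at the right of each group. The groups are apart in every panel except ACTA2, where OIM replicate 2 lies among the control libraries.

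Lipid genes with other tasks went the other way or did not move together. In the list of adipogenic factors and lipid handling, 3 of 26 rose and 8 fell. FABP3, a fatty acid carrier of muscle, rose from 17.9, 15.6 and 17.1 CPM to 33.7, 39.3 and 32.0 CPM (1.06), and CEBPD, an early adipogenic factor, fell by 0.38. The count of members that fell depended on single libraries, being 2 without control replicate 1 and 5 without control replicate 3 or OIM replicate 2, and 1 rose without control replicate 3. The lipase LPL and the carrier APOE, at -0.76 and -0.64, lost their call in some of these fits.

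Genes that insulin and glucose control through FOXO and MondoA factors showed a few large falls. Of 28 tested, 1 rose and 5 fell, with a median of -0.067, and 2 rose without control replicate 2 or OIM replicate 3. TXNIP, an arrestin-like protein that limits glucose uptake, had 3.67, 7.59 and 3.77 CPM in control and 0.572, 0.936 and 0.788 CPM in OIM, a log2 fold change of -2.699 (SE 0.29, adjusted p = 2.1e-06). Control replicate 2 was high, and every OIM library was below every control library. Its paralog ARRDC4 fell by 0.80, from 79.2, 99.4 and 74.8 CPM to 43.0, 54.4 and 48.2 CPM, again with control replicate 2 highest. FBXO32, a ubiquitin ligase and FOXO target, fell by 0.33, ARRDC3 by 0.27 and CCNG2 by 0.20, and SESN3 rose by 0.13. CCNG2 lost its call without any 1 of control replicates 1 and 2 and the OIM replicates, and SESN3 without control replicate 1 or 3, OIM replicate 1 or 2 or bFGF replicate 1. The window before TXNIP, chr4:99348289-99348588 on the plus strand, holds a carbohydrate response element, searched as CACGNG, any 5 bases and CNCGNG on both strands, which occurred before 64 of 13640 genes (0.469%). It can contain an E-box, CACGTG. No other member of the list had it. Of the 64 genes that did, 12 changed, 5 of them upwards, where 13.6% of all genes changed. The median log2 fold change of the 64 was -0.032. The window is shown because TXNIP fell the furthest of the genes called with at least 1 CPM in control and no overlap. The element is in capitals.
TXNIP: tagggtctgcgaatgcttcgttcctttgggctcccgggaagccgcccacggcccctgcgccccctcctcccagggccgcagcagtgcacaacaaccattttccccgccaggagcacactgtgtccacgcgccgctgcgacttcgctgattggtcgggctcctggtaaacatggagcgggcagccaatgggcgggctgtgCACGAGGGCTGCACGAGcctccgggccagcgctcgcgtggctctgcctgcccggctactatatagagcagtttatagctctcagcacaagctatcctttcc

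In the IGF list 5 of 18 rose and 4 fell. The receptor IGF1R rose by 0.22 and IGFBP4 by 0.24. IGFBP3, a binding protein, fell from 4.99, 3.76 and 3.10 CPM to 1.38, 1.29 and 1.75 CPM (-1.42), PAPPA, the protease that frees IGF from IGFBP4, by 0.43, and IGFBP5 by 0.47, or -0.297 without OIM replicate 2. IRS1, the docking protein of both receptors, was at 0.21 and missed the threshold without control replicate 1 (adjusted p = 0.0534).

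Genes of DNA replication and mitosis were higher in OIM, and here the OIM libraries were unequal. Of 63 mitosis and kinetochore genes tested, 25 rose and none fell, all 63 had a log2 fold change above 0, and the median was 0.25. Of 44 replication genes, 12 rose and none fell, with a median of 0.21. The median of the mitosis list relative to the mean of the control libraries, on the scale of log2(CPM + 0.1), was 0.076 in OIM replicate 1, 0.481 in OIM replicate 2 and 0.107 in OIM replicate 3, and -0.022 to 0.019 in the control libraries. For replication it was 0.075, 0.46 and 0.055 in the OIM libraries and -0.019 to 0.003 in the control libraries. All OIM libraries were thus above the control libraries, by a small step in replicates 1 and 3 and by a large one in replicate 2. Without OIM replicate 2 the median of the mitosis list was 0.11 with 13 risen, and that of the replication list 0.069 with 6 risen. AURKA, a spindle kinase, had 15.2, 15.5 and 14.7 CPM in control and 17.2, 22.1 and 20.1 CPM in OIM (0.39). TOP2A, which untangles chromosomes, had 104, 104 and 107 CPM in control and 117, 155 and 117 CPM in OIM (0.30), and was at 0.154 without OIM replicate 2. MCM3, a subunit of the replicative helicase, had 18.2, 18.1 and 17.5 CPM in control and 20.6, 35.2 and 20.9 CPM in OIM (0.52), missed the threshold without control replicate 3 (adjusted p = 0.0522) and was at 0.21 without OIM replicate 2. The counts moved with other libraries too. Mitosis had 15 risen without control replicate 2 and 39 without OIM replicate 1. Replication had 6 without control replicate 1, 7 without control replicate 2 or 3 and 19 without OIM replicate 3. With control and OIM libraries alone, replication had 7 risen.

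Among 34 G1 cyclins, CDK inhibitors and p53 targets, 8 rose and 2 fell, and 4 and 5 rose without control replicates 1 and 2. The number fallen was 1 without control replicate 1, control replicate 3 or OIM replicate 2. With control and OIM libraries alone, 5 rose. CCND1, the cyclin that answers to growth factors, had 268, 276 and 254 CPM in control and 379.8, 469 and 336 CPM in OIM (0.57, SE 0.07), and the inhibitor CDKN2B rose by 0.58. CDKN1A, the p53-dependent inhibitor, fell by 0.23, from 290.2, 313 and 291 CPM to 262, 241 and 259 CPM. Only 4 of 26 histone genes listed were in the table and tested, and SLBP, which binds histone messages, rose by 0.18 and lost its call without control replicate 1 or 3 or OIM replicate 2 or 3.

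Ribosomal protein genes shifted upwards by small amounts. Of 77 cytosolic ribosomal proteins, 71 were higher, 21 rose and none fell, with a median of 0.077. In 40 of the 77 all OIM libraries were above all control libraries, against 14.5% of all genes. RPL3 had 866, 845 and 849 CPM in control and 1012, 1036 and 1020.5 CPM in OIM (0.26, SE 0.03), and RPL13A had 420.1, 404 and 431 CPM in control and 501, 472 and 488 CPM in OIM (0.22). The largest of these shifts was under the fold limit. The number risen was 13 without control replicate 2 or OIM replicate 1, and 1 fell without the former. Such genes have many processed copies in the genome, whose reads the counting could have split. Of 63 ribosome biogenesis genes, 9 rose and none fell, a share called of 14.3% that was near the 13.6% of all genes, with a median of 0.080, among them MRTO4 (0.28) and UTP14A (0.28), and 5 rose without control replicate 2, control replicate 3 or bFGF replicate 1. Without OIM replicate 2, 1 of them fell, and with control and OIM libraries alone 4 rose. Mitochondrial ribosomal proteins (1 of 72 rose, none fell) and nuclear genes of oxidative phosphorylation (none of 65 rose, 1 fell) were called at shares below that of all genes, with 0 to 2 genes in either direction when a library was left out.

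**Figure D3:**
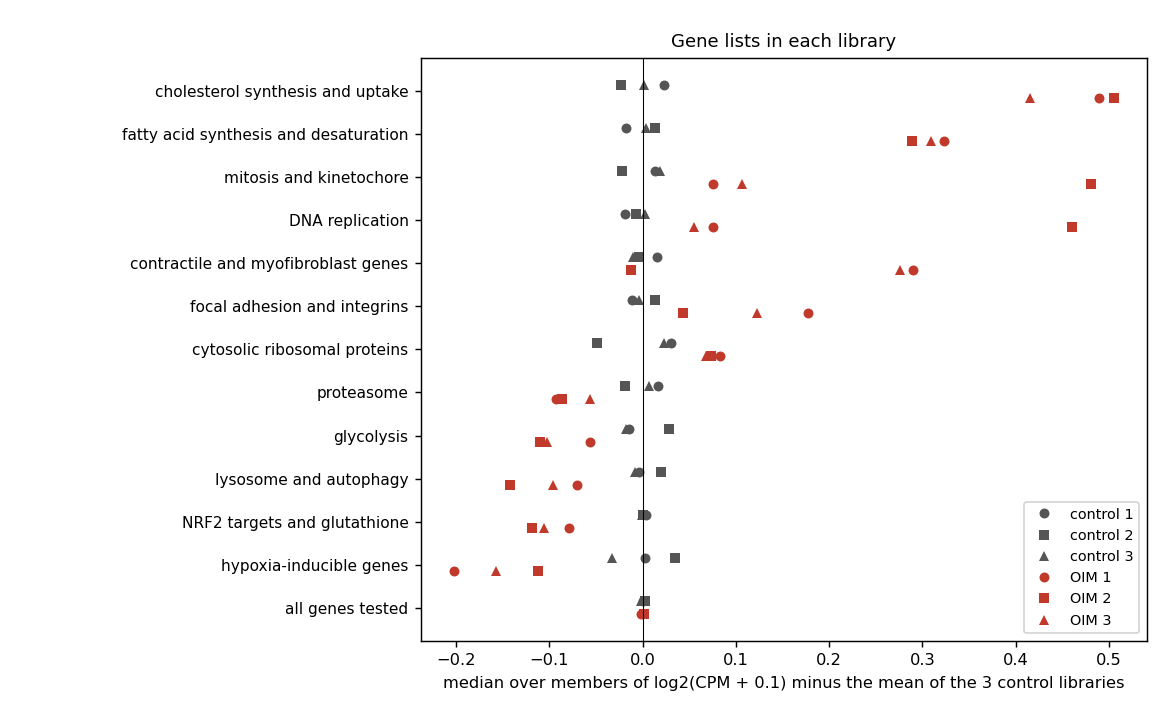
Median over the members of 12 lists, and over all genes, of log2(CPM + 0.1) minus the mean of the 3 control libraries (horizontal axis), for each control library (grey) and OIM library (red). Cholesterol and fatty acid genes sit together at the right in all OIM libraries, OIM replicate 2 is far right for mitosis and DNA replication, and it lies next to the control libraries for contractile genes.

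Contractile genes were mostly higher too, and OIM replicate 2 again differed, in the opposite direction. Of 38 contractile and myofibroblast genes 33 were higher, 19 rose and 1 fell, with a median of 0.18. The list median by library was 0.29, -0.012 and 0.276 in OIM replicates 1 to 3, so that replicate 2 lay just below the control range of -0.01 to 0.015. Without it 31 rose and the median was 0.28, and without OIM replicate 1 or 3 the number was 11. None fell without control replicate 1 or OIM replicate 1. MYH11, the myosin heavy chain of smooth muscle, had 132, 128 and 126 CPM in control and 325, 182 and 337 CPM in OIM (1.13, SE 0.14). CNN1, which encodes calponin, had 219, 216 and 219 CPM in control and 337, 244 and 329 CPM in OIM (0.48). ACTA2, the alpha smooth muscle actin that marks myofibroblasts, had 6960.2, 6610.1 and 6791 CPM in control and 9209.8, 6852 and 9286 CPM in OIM (0.32, adjusted p = 0.0078), and its groups overlapped through OIM replicate 2. In each of these genes replicates 1 and 3 were high and replicate 2 was near or between the groups. SRF, the transcription factor of contractile genes, rose by 0.25. DES, an intermediate filament of muscle, rose by 3.33 from 0.294, 0.280 and 0.619 CPM to 4.91, 2.04 and 5.22 CPM. VIM, the filament of fibroblasts, was at -0.13 and lost its call without control replicate 1, OIM replicate 1 or OIM replicate 3. Actins share near-identical sequence, so reads may be split between them.

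Adhesion genes, which carry contractile force, shifted with less scatter between the libraries. OIM replicate 2 was again the lowest, with list medians of 0.177, 0.043 and 0.123 in OIM replicates 1 to 3. The control libraries had -0.011 to 0.013. Of 33 focal adhesion and integrin genes, 30 were higher, 13 rose and 1 fell, with a median of 0.14. ITGA7, a laminin-binding integrin of muscle, had 12.9, 15.8 and 13.03 CPM in control and 34.4, 20.7 and 37.8 CPM in OIM (1.15). VCL, vinculin, had 918, 933 and 931 CPM in control and 1216, 1049 and 1191 CPM in OIM (0.31), ZYX rose by 0.25 and ITGB1 by 0.19. Of 32 YAP and TEAD targets, 10 rose and 1 fell, and 6 rose without control replicate 1. Without OIM replicate 2, 15 rose and 4 fell. In F3, tissue factor, OIM replicate 2 was again the lowest, at 35.7 CPM against 59.4 and 64.3 CPM in the other OIM libraries and 28.7 to 30.4 CPM in control (0.85). TTN and RYR2, which were listed as markers of heart and skeletal muscle, rose by 1.17 and 0.81. They were the only 2 called of the 6 such markers tested, of which 3 were higher, with a median of 0.028. The list median was 0.4, -0.082 and 0.432 in OIM replicates 1 to 3 and 0.026 to 0.131 in control. The summed level of the 13 muscle markers in the table was 21.2 to 24.0 CPM in control and 43.1 to 46.6 in OIM. Of these 13, 3 were at 0 in every control and OIM library.

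Among matrix genes, rises and falls occurred within the same lists. In the elastic fibre list 8 of 22 rose and 5 fell. ELN, elastin, had 116, 118 and 106 CPM in control and 254, 185 and 240.4 CPM in OIM (0.997, SE 0.08), and MFAP2, a microfibril protein, had 28.4, 30.8 and 30.1 CPM in control and 57.6, 48.0 and 54.0 CPM in OIM (0.84). Both were well apart from control in every library. Of the cross-linking oxidases, LOXL3 (0.39) and LOXL1 (0.23) rose, and LOXL2 fell by 0.70, from 2511, 2765 and 2534 CPM to 1589, 1629 and 1575 CPM (SE 0.04, adjusted p = 1.2e-10). The number that fell was 3 without control replicate 2 or 3.

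Of 33 collagen chains 9 rose and 3 fell. The basement membrane chains COL4A1 (1458, 1510.1 and 1425 CPM in control, 2055, 1623 and 1917 CPM in OIM) and COL4A2 rose by 0.35 and 0.41, COL8A1 by 0.34 with 1395 to 1496 CPM in OIM against 1140.2 to 1153 CPM in control, and COL11A1 by 0.33. COL6A3 fell by 0.35, from 6543, 7475 and 6761 CPM to 5424, 5662 and 5207 CPM, and COL6A6 by 0.98, from 82.6, 83.3 and 84.5 CPM to 40.3, 43.7 and 43.2 CPM. The main fibrillar chains did not pass the test. COL1A1 was at -0.11 (adjusted p = 0.094), COL1A2 at -0.09 (adjusted p = 0.064) and COL3A1 at 0.03 (adjusted p = 0.67).

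Enzymes that use ascorbic acid were measured because the medium contained it. Of 26 genes of collagen hydroxylation, folding and processing, 3 rose and 9 fell. The prolyl hydroxylases P4HA1 (771, 744 and 725 CPM in control, 591, 609 and 615 CPM in OIM) and P4HA2 fell by 0.30 and 0.35, while P4HA3 rose by 0.27, and the collagen chaperone SERPINH1 fell by 0.21. Of 26 transporters and other dioxygenases, none rose and 3 fell, which was near the share of all genes, and 1 rose without control replicate 1 or OIM replicate 1. SLC23A2, the ascorbate transporter, fell by 0.19 from 169.6, 181 and 178 CPM to 152, 159 and 153 CPM, TET1, a DNA demethylase, by 0.37, and EGLN3, a hydroxylase of the hypoxia-inducible factors, by 0.75.

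Matrix proteoglycans and glycoproteins were mixed, with 6 of 33 risen and 6 fallen. ACAN, the proteoglycan of cartilage, rose by 0.82 from 32.5, 34.0 and 31.3 CPM to 65.4, 43.9 and 63.3 CPM, and THBS2 by 0.40. DCN fell by 0.23 and OGN by 0.45. Without OIM replicate 2, 10 of this list rose, and 3 rose without control replicate 1 or 3, OIM replicate 1 or bFGF replicate 1. Among 24 matrix metalloproteinases and inhibitors 3 rose and 9 fell, with a median of -0.16. The inhibitor TIMP1 fell by 0.31, from 482, 536 and 502 CPM to 415, 415 and 393 CPM, the membrane protease MMP14 by 0.22 and the gelatinase MMP2 by 0.19.

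**Figure D4:**
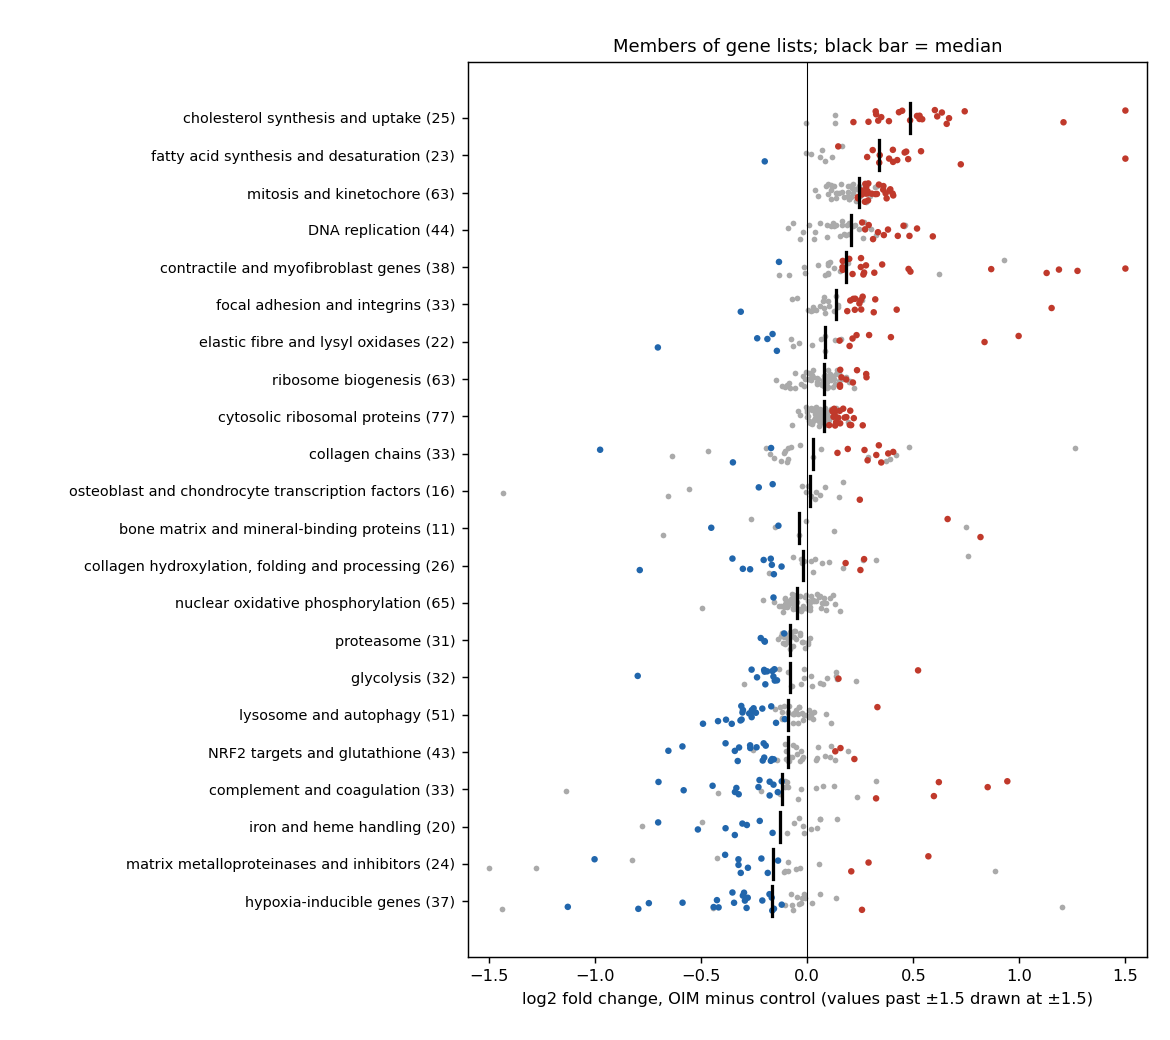
Log2 fold change of OIM over control (horizontal axis) for the tested members of 22 lists, with the number tested in brackets. Red and blue points are genes with an adjusted p of at most 0.05, grey points the others, and black bars the medians, which run from 0.48 for cholesterol genes to -0.17 for hypoxia-inducible genes.

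Among hypoxia-inducible and glycolysis genes, more fell than rose. Of 37 hypoxia-inducible genes, 20 fell and 1 rose, with a median of -0.17, and the median by library was -0.202, -0.112 and -0.157 in OIM and -0.033 to 0.035 in control. The genes that fell have different tasks. NDUFA4L2, which restrains mitochondrial respiration, had 34.2, 41.6 and 34.6 CPM in control and 17.99, 18.8 and 13.6 CPM in OIM (-1.13). CA12, a carbonic anhydrase, fell by 0.80, and EGLN3 had 98.8, 102 and 94.01 CPM in control and 57.5, 58.1 and 60.1 CPM in OIM. DDIT4, an inhibitor of mTOR, fell by 0.44, ADM by 0.35 and NDRG1 by 0.29. VEGFA was at -0.18, its groups overlapped, and it lost its call in 5 of the 9 fits that left out a library. The number that fell was 13 without control replicate 2. The exception was STC2, a secreted glycoprotein also in the ATF4 and phosphate lists, which rose by 0.26 and missed the threshold without control replicate 3 (adjusted p = 0.0515).

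Of 32 glycolysis genes 12 fell and 2 rose, with a median of -0.084. The shifts were small and close to each other for the main enzymes. LDHA had 1485, 1422 and 1457 CPM in control and 1229, 1291 and 1271 CPM in OIM (-0.20), PGK1 had 709, 702 and 692 CPM in control and 595, 600.4 and 633 CPM in OIM (-0.20), GAPDH was at -0.20 and PKM at -0.16. Among the enolases the neuronal form ENO2 fell by 0.80 and the muscle form ENO3 rose by 0.52. The number that fell was 12 when a library was left out, 1 rose without control replicate 1, control replicate 2 or OIM replicate 3, and the median ran from -0.0455 without control replicate 2 to -0.119 without control replicate 1.

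Antioxidant, iron and lysosomal genes also fell more often than they rose. Of 43 NRF2 targets and glutathione genes 16 fell and 3 rose, with a median of -0.093, and 1 rose without control replicate 3. SOD2, the superoxide dismutase of mitochondria, had 988, 1000.5 and 915 CPM in control and 583, 629.7 and 631 CPM in OIM (-0.66, SE 0.05), GPX1 fell by 0.33, NQO1 by 0.24 and TXNRD1 by 0.17. The members that rose included TKT (0.22), of the pentose phosphate pathway that supplies NADPH, and GCLM (0.16), which lost its call without control replicate 2 or 3 or OIM replicate 3. Of 20 iron and heme genes 8 fell and none rose, with a median of -0.13. Without control replicate 2, 6 fell and the median was -0.0833, and without OIM replicate 2, 1 rose. The ferritin chains FTH1 and FTL fell by 0.39 and 0.34, with FTL at 1279, 1260.0 and 1255 CPM in control and 1013, 994 and 987 CPM in OIM, and both chains are also in the NRF2 list. LCN2, which binds iron-carrying siderophores, fell by 0.70.

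Of 51 lysosome and autophagy genes 19 fell and 1 rose, with a median of -0.092, and the number fallen was 15 to 18 when a library was left out. CTSK, the collagen-degrading cathepsin of osteoclasts and fibroblasts, had 1396, 1316 and 1331 CPM in control and 969.7, 917 and 988 CPM in OIM (-0.49, SE 0.04), and CTSH fell by 0.42, CTSB by 0.31 and CTSD by 0.31. The membrane protein LAMP2 (-0.31), the sphingolipid activator PSAP (-0.30) and the autophagy receptor SQSTM1 (-0.38) fell alike. TFEB, a transcription factor of lysosomal genes, was at 0.33 in the opposite direction, and lost its call without control replicate 1 or 3 or OIM replicate 1 or 2. Of 31 proteasome subunits, 3 were higher and the rest lower by small amounts. The 4 that fell (12.9%, near the 13.6% of all genes called) included PSMA6 (-0.22), and the number was 2 without control replicate 1 or 3 and 6 without control replicate 2. The median was -0.080, and all OIM libraries were below all control libraries in 15 of the 31, against 14.2% of all genes.

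Secreted defence proteins fell more than they rose. Of 33 complement and coagulation genes 13 fell and 5 rose (3 without control replicate 1), with a median of -0.12. C3, the central complement component, had 523, 624 and 521 CPM in control and 334, 349.5 and 343 CPM in OIM (-0.70), CFI fell by 0.58, CLU by 0.33 and SERPINE2 by 0.45, and the members that rose act in coagulation or its receptors, such as F3 and the thrombin receptor F2R (0.60), which lost its call without control replicate 1 or 2. Cytokines, chemokines and NF-kB genes were divided, with 5 of 41 risen and 5 fallen. IL11, a fibrogenic cytokine, had 12.7, 14.3 and 12.5 CPM in control and 28.1, 41.5 and 24.0 CPM in OIM (1.25, SE 0.13), and VCAM1 fell by 0.26. The number of these that fell was 1 without OIM replicate 1, 3 without control replicate 1 or 2 and 8 without OIM replicate 2. Interferon and antigen presentation genes were mostly not called (none of 44 rose, 2 fell). The number fallen was 1 without any 1 control library, OIM replicate 1 or OIM replicate 2, and 4 without OIM replicate 3, and 1 rose without control replicate 2. Among 22 glucocorticoid-responsive genes 6 fell and 2 rose, or 1 without OIM replicate 3. Among 23 clock genes 5 rose and 2 fell, with PER2 at 0.34. In the clock list 4 fell without OIM replicate 2 and 3 rose without control replicate 3.

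The classical bone genes did not move in 1 direction. Of 16 transcription factors of osteoblasts and chondrocytes tested, 1 rose and 2 fell, a share called of 18.8% against 13.6% of all genes. Without OIM replicate 2, 3 of them rose, and 1 fell without control replicate 1 or OIM replicate 1 or 3. Their median was 0.012, and it ran from -0.0313 without OIM replicate 1 to 0.0392 without OIM replicate 2, so that its sign was not fixed. RUNX2, the master factor of osteoblasts, had 41.3, 39.0 and 40.6 CPM in control and 48.0, 48.0 and 47.4 CPM in OIM (0.25, SE 0.05, adjusted p = 0.0018). SOX9, its counterpart in cartilage, had 138, 149 and 138 CPM in control and 127, 124 and 128 CPM in OIM (-0.16, adjusted p = 0.0089). Both shifts were small and without overlap. MSX2 (-0.01) and TWIST1 (0.17, adjusted p = 0.054) did not pass. SP7, which acts after RUNX2, had 0 counts in every control and OIM library, where a count of 0 allows up to 3 counts.

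Bone matrix genes gave 2 risen, ACAN and SPARCL1, and 2 fallen, SPARC and OGN, of 11 tested, a share of 36.4%, and the rises of ACAN and SPARCL1 passed the fold limit. SPARC was at -0.14 and lost its call in 7 of 9 fits, among them without OIM replicate 2 (-0.0688), and OIM replicate 2 was the lowest in SPARCL1 too (23.4 CPM against 34.7 and 36.1 CPM in the others, with 19.7 to 19.9 CPM in control). SPP1, osteopontin, had 37.4, 34.4 and 33.6 CPM in control and 34.0, 35.3 and 35.6 CPM in OIM, with no difference detected (adjusted p = 0.97). BGLAP, osteocalcin, had 15, 19 and 23 counts in control and 24, 49 and 25 in OIM (0.75, SE 0.43, adjusted p = 0.29). IBSP had 0 to 4 counts and ALPL, the phosphatase that marks mineralising cells, 1 to 15 counts a library, and neither was tested. At the depth of BGLAP, under 1 CPM, no shift below 1.04 was called in any gene, so that smaller differences were not detectable there.

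The medium's phosphate has its own transporters and inhibitors, and 3 of 13 of these rose and 2 fell (38.5% called). The number that fell was 4 without OIM replicate 2 and 1 without control replicate 2 or OIM replicate 1. The sodium-phosphate carriers moved in opposite directions. SLC20A1 had 237, 232 and 233 CPM in control and 188, 209 and 186 CPM in OIM (-0.27, SE 0.04), and SLC20A2 had 34.5, 35.1 and 34.5 CPM in control and 43.0, 48.3 and 47.5 CPM in OIM (0.42, SE 0.05). XPR1, the phosphate exporter, rose by 0.29. ANKH, which releases the mineral inhibitor pyrophosphate, was at -0.25 and lost its call without control replicate 2 or OIM replicate 1, and the inhibitors ENPP1 (-0.10) and MGP (0.12) did not pass the test. TNFRSF11B, the RANKL decoy receptor osteoprotegerin, was at 0.25 (adjusted p = 0.44).

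Genes of growth factor pathways were called in both directions. Of 32 BMP genes 7 rose and 6 fell. The ligand BMP2 had 6.20, 6.91 and 6.36 CPM in control and 2.69, 4.96 and 4.08 CPM in OIM (-0.72), while BMP6 had 2.37, 2.43 and 3.31 CPM in control and 5.85, 4.99 and 6.04 CPM in OIM (1.05), and GDF6 (0.54) and BMP4 (0.31) also rose. The target ID2 fell by 0.64, from 62.2, 64.9 and 58.4 CPM to 39.9, 39.9 and 39.1 CPM, ID4 rose by 0.52, and the antagonist CHRD fell by 0.46. Of 28 TGF-beta genes 6 rose and 5 fell. The ligand TGFB1 had 20.8, 19.2 and 18.4 CPM in control and 15.4, 16.4 and 11.7 CPM in OIM (-0.42), whereas TGFB3 had 222, 217 and 212 CPM in control and 319.8, 260.1 and 325 CPM in OIM (0.47) and TGFB2 rose by 0.24. The number of TGF-beta genes that fell was 2 without control replicate 2 and 3 without control replicate 3. Of 37 Wnt genes 5 rose and 1 fell, a share called of 16.2% that was near the 13.6% of all genes, and 9 rose without OIM replicate 2. WIF1, an inhibitor that binds Wnt proteins, had 21.2, 19.9 and 20.98 CPM in control and 9.37, 10.3 and 9.42 CPM in OIM (-1.09, SE 0.07), and the related inhibitors SFRP4 (0.52) and SFRP1 (0.27) rose. Among 16 Notch genes, of which 18.8% were called, 1 rose and 2 fell (2 and 1 without OIM replicate 2, and 1 fell without control replicate 1 or 3 or OIM replicate 1), with the receptor NOTCH3 at -0.55, from 71.7, 84.2 and 71.0 CPM to 55.1, 45.4 and 54.4 CPM, and the target HEY1 at 0.11 (adjusted p = 0.83). Of 41 FGF and ERK feedback genes 7 rose and 4 fell, among them the phosphatase DUSP6 (0.36) and the ligand FGF2 (-0.23). DUSP6 lost its call without any 1 control replicate or OIM replicate 2, and was at 0.196 without the latter. The number of the 41 that rose was 1 without control replicate 1, control replicate 3 or OIM replicate 2. It was 3 without control replicate 2, 12 without OIM replicate 3 and 2 with control and OIM libraries alone.

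Several lists were called at a share near or below that of all genes or in both directions. Of 44 ER chaperone and secretory genes 1 rose and 3 fell, and 0 to 2 rose when a library was left out. Only 13 of the 44 were higher, with a median of -0.051. In 17 of them all OIM libraries were below all control libraries, against 14.2% of all genes. Of 39 ATF4 targets of the amino acid response 5 rose and 5 fell. The ATF4 counts were 3 to 5 risen and 2 to 4 fallen when a library was left out. Of 37 valve developmental transcription factors 6 rose and 3 fell. TBX20, a factor of heart and valve development, had 167, 153 and 156 CPM in control and 118, 119 and 128 CPM in OIM (-0.38), and MEF2C rose by 0.37. Of 38 channel and transporter genes 6 rose and 4 fell, or 2 without control replicate 1 or OIM replicate 1, with the calcium pump ATP2B1 at 0.27 and the potassium channel KCNMA1 at -0.35.

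Beyond the lists, the largest changes with at least 1 CPM were in genes of several kinds. HSPB7, a small heat shock protein of muscle, had 7.69, 6.85 and 7.85 CPM in control and 23.7, 16.3 and 22.7 CPM in OIM (1.48). GABBR2, a GABA receptor subunit, had 8.44, 9.02 and 7.92 CPM in control and 24.5, 19.8 and 19.5 CPM in OIM (1.33), and the matrix glycoprotein RELN had 1.45, 1.53 and 1.22 CPM in control and 5.13, 4.39 and 3.85 CPM in OIM (1.67). Among falls, ABI3BP, a matrix protein that binds collagen, had 322, 353 and 334 CPM in control and 136, 150.1 and 153 CPM in OIM (-1.199, SE 0.05, adjusted p = 1.7e-12). DIO2, which activates thyroid hormone, had 56.0, 52.1 and 51.8 CPM in control and 19.4, 31.6 and 23.3 CPM in OIM (-1.10). FREM1, a basement membrane protein, had 8.53, 8.15 and 8.57 CPM in control and 2.80, 3.32 and 2.78 CPM in OIM (-1.501), and HRK, an activator of apoptosis, fell by 1.78. The genes of this paragraph were picked among those without overlap between the groups, so the lack of overlap is not a result.

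The small shifts with the smallest p-values, all under the limit of 0.5 and without overlap, came from well-expressed genes. Of the 15 that rose, ACLY, FADS1, HMGCS1, MSMO1 and ACACA belong to lipid synthesis. FAP, a protease of activated fibroblasts, had 96.5, 97.1 and 96.0 CPM in control and 137, 134 and 135 CPM in OIM (0.49, SE 0.04, adjusted p = 2.0e-08). SVEP1, a large matrix protein, had 560.3, 582 and 573 CPM in control and 804, 718 and 798 CPM in OIM (0.44), and PPOX, an enzyme of heme synthesis, had 58.1, 59.3 and 59.1 CPM in control and 81.2, 83.5 and 82.3 CPM in OIM (0.48). NUAK1, a kinase, was at 0.46. Of the 15 that fell, CTSK, CTSH, GRN and SQSTM1 act in or around the lysosome and FTH1 and FTL form ferritin. PTGIS, prostacyclin synthase, had 305, 339 and 324 CPM in control and 232, 239 and 229 CPM in OIM (-0.47), DAB2, an endocytic adaptor, had 321, 327 and 327 CPM in control and 252, 241 and 258 CPM in OIM (-0.38), and SLC5A3, the myo-inositol carrier, had 192, 169.7 and 166 CPM in control and 118, 132 and 125 CPM in OIM (-0.49). Both sets were picked by the smallest p among genes without overlap, so the gap between the groups follows from that choice.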

How the data were processed

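Total RNA of PVICs was sequenced in 9 libraries (control, OIM and bFGF, 3 each). The labels give a stranded kit with depletion of ribosomal RNA and 3 days of treatment, and the methods of the study a poly-A kit and a shorter time. Per the submitters' processing notes, Trimmomatic, HISAT2, StringTie and the Sscrofa11.1 build were used, whereas the study's methods name other tools. How reads were counted, and whether strand was used, is not given in the sources used here. The deposited values are estimated counts (expected counts), which are whole numbers for all gene rows. A further 19 columns of the table have neither name nor value and were not used, and 25 gene names turned into dates by a spreadsheet are not named here.

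From these, edgeR 4.0.16 (R 4.3.3) fitted all 9 libraries by group, after filterByExpr and TMM normalisation, with quasi-likelihood tests and Benjamini-Hochberg adjustment. Calls used an adjusted p of at most 0.05, with or without a log2 fold change of at least 0.5. The common biological coefficient of variation was 0.0602. The script was tested on simulated data. Alternatives were DESeq2 1.42.0, other scalings and filters, control and OIM libraries alone, a replicate block, each library left out, other limits, and an offset for GC content and length chosen after seeing the data. No pair of libraries agreed within sampling noise. Libraries with the same replicate number did not deviate together (correlations of -0.0489, 0.00479 and -0.0252), so the numbers were not taken as pairs.

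The comparison and the 50 gene lists, of which 45 are programmes and 5 cell markers, were chosen with earlier results of these data known. Lists are described by counts and medians beside those of all genes, with no set test. List genes were matched by symbol, 37 of them under an older one, and 1696 of 1766 entries were in the table. The genes named were taken from the members of each list with an adjusted p of at most 0.05, largest changes first, from the genes in each direction with the largest changes past the limit, no overlap and at least 1 CPM, from those under the limit with the smallest p and no overlap (15 each), and from a fixed set of bone, matrix, phosphate and lipid genes. Only some of these are printed, chosen with their values known. Medians by library used log2(CPM + 0.1). Windows before gene starts, positions and the GC content of exons came from the RefSeq annotation of Sscrofa11.1, which 13643 of 13662 genes matched by symbol. Depth was 57075793 to 67371523 gene counts a library in control and OIM, and limits set by counts cover counting error only. A few genes and the window before another are not reported here.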

Additional observations from a re-analysis of the deposited data

How the results depend on the processing

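The directions of the 4 counts and the list medians quoted at 0.1 or more held under every alternative run. With the fold limit, 203 genes were higher and 118 lower. An unadjusted p gave 320 and 229, a 2-fold limit 63 and 28, and without the fold limit an unadjusted p gave 1939 and 1635 against 1051 and 802. DESeq2 gave 234 and 128 with the limit and 1216 and 832 without, and control and OIM libraries alone 186 and 117, and 886 and 705. Leaving out each library gave 177 to 210 higher and 101 to 146 lower with the limit, and 752 to 1128 and 575 to 837 without. Of the 1051 and 802 genes, 584 and 416 kept their call in all 9 of these fits. The replicate block gave 195 and 114 with the limit and 1000 and 740 without. The block is not a true pairing, since the numbers do not pair the samples. The offset for GC content and length, chosen after seeing the data, gave 215 and 126, and 1238 and 816. SPP1 and MSX2, neither of them called, turned sign. SPP1 was at 0.002 with DESeq2, 0.0019 with median-of-ratios size factors and 0.0199 with the offset, and from -0.036 to 0.0421 with a library left out, MSX2 at 0.005 with the offset and from -0.0598 to 0.069 with a library left out. HEY1, not called either, ran from -0.0017 without control replicate 2 to 0.1897 without control replicate 3. Of the 492 genes of the named set that changed, 326 kept their call in all 9 leave-out fits. No shift below 0.126 was called in genes from 10 to 100 CPM, and none below 0.0864 in genes above that.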
